A study of Homo sapiens with 6 samples.

Results

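The genes of the SR proteins, the hnRNP proteins and the SF3 subunits, whose products decide which exons enter a mature mRNA, were followed in T98G cells after silencing of the kinase DYRK1A. Members were chosen by symbol alone: SRSF and a number, TRA2A or TRA2B, HNRNP and a letter code, or SF3A or SF3B and a digit. Pseudogene symbols, 52 in number, were left out. This gave 44 of the 23026 genes with a normalized value, namely 13 SR, 22 hnRNP and 9 SF3 genes. T98G is a human glioblastoma cell line. Cells were infected with a lentivirus that expressed a control short hairpin RNA (shControl) or a single short hairpin RNA against DYRK1A (shDYRK1A), and the infected cells of both groups were selected with puromycin. Each group had 3 libraries (1A, 1B and 1C), given below in that order, and nothing in the labels says that they came from separate cultures, so p-values measure the spread between these libraries. As an external scale, Drosophila Kc167 cells in constant amount had been added to each sample, made of the same number of T98G cells, before RNA was extracted, and their reads set the normalized counts.

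SR proteins carry RNA recognition motifs and an arginine-serine rich tail, bind exonic enhancers and mostly favour exon inclusion. The hnRNP proteins coat nascent transcripts and often oppose inclusion, while SF3A and SF3B are the parts of the U2 snRNP that hold the intron branch site. DYRK1A is a nuclear kinase, and SRSF1, SRSF2, SRSF6 and SF3B1 are among the splicing proteins known as its substrates. Many SR and hnRNP genes also tune their own mRNA through poison exons, which send the transcript to nonsense-mediated decay.

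The libraries held 33708297 to 42154438 reads assigned to human genes, and 2.26 to 2.49% of reads mapped to several places. Library shDYRK1A 1B stood apart, with the highest share of unmapped reads (15.6%, against a lowest of 8.44%), and it differed more from its group than any other pair of replicates did. The calls on members that change without it are therefore named below. Scaled by the fly reads, total human counts were 48090252, 47835662 and 40116360 in shControl. They were 36658657, 31230657 and 33310112 in shDYRK1A. On the spike-in scale shControl 1C was thus the lowest shControl library in total, which bears on whether the groups overlap. The kinase itself had spike-in normalized counts of 2227, 2234 and 1895 in shControl and 1482, 1056 and 1285 in shDYRK1A. The groups did not overlap, as was so in this direction for 63.6% of all tested genes. DYRK1A fell by 0.73 ± 0.15 (SE) on the log2 scale (adjusted p = 5.33e-06, edgeR's quasi-likelihood test), so that 60.2% of the control mean was left. Without shDYRK1A 1B it fell by 0.61. On this spike-in scale the median of all tested genes was -0.40. Relative to all human genes, as described below, DYRK1A fell by 0.34 ± 0.06 (adjusted p = 0.00059, edgeR), and by 0.28 without shDYRK1A 1B. Of 10 glial or glioma markers, VIM, CD44 and TNC were above 10 CPM (counts scaled to 1e6 human counts per library), whereas SOX2, GFAP, S100B and FABP7 had under 5 counts in every library. The summed level of the 10 markers was 3366 to 3516 CPM in shControl and 3164 to 3254 CPM in shDYRK1A. VIM and CD44 made up most of this sum. VIM was at 1944, 1975 and 1887 CPM in shControl and 1530, 1630 and 1607 CPM in shDYRK1A. CHI3L1 was at 3.54, 4.74 and 4.78 CPM in shControl and 13.8, 13.1 and 13.5 CPM in shDYRK1A. NES and OLIG2 were also lower in shDYRK1A, and CD44 and TNC were higher. Markers of leukocytes, endothelium, epithelium and neurons, 10 genes, summed to 3.82 to 5.48 CPM in shControl and 6.94 to 7.81 CPM in shDYRK1A, and CD3E had 0 counts in every library. SYP and EPCAM made up most of that sum, and its part in the results below was not tested.

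Because DYRK1A is known at promoters that hold the palindrome TCTCGCGAGA, the RefSeq promoters of the members (250 bases before to 50 bases after each annotated start, GRCh38.p14) were searched for these 10 letters. Only exact matches were counted. The study called its motif by a p-value threshold and measured DYRK1A binding by ChIP-Seq, and neither was used here. The palindrome reads alike on both strands. It was found in 149 of 35116 promoters (0.424%), in 88 of the 7594 tested genes with a promoter entry (1.16%) and in 3 of the 40 members with one. Those 3 are shown with the palindrome in capitals and 10 bases on each side, on the strand of the gene.
SRSF10, chr1:23980360-23980389, minus strand: gggagtgaagTCTCGCGAGAagagtcggtt
HNRNPK, chr9:83980653-83980682, minus strand: agttgttagaTCTCGCGAGAggttcgcccc
HNRNPH3, chr10:68331971-68332000, plus strand: gactttcccgTCTCGCGAGAgtggggccgg
The matches began 52, 57 and 83 bases before the RefSeq start of SRSF10, HNRNPK and HNRNPH3. In the GENCODE v29 annotation all 30 printed bases of SRSF10 and of HNRNPH3 lie inside exons of the gene, and 0 of those of HNRNPK. For SRSF10 and HNRNPH3 a place upstream of the gene therefore depends on the start chosen. These 3 genes did not move alike: relative to all human genes, as described below, SRSF10 fell, HNRNPK (log2 fold change -0.09) did not pass the test with all libraries and HNRNPH3 rose. Its inner 8 letters, CTCGCGAG, were found in 5 of the 40 members, SRSF4 and HNRNPUL1 being the others, and in 2.78% of the tested genes. Over the tested genes with a promoter entry, the median log2 fold change relative to human genes was -0.02 with the full palindrome (88 genes) and 0.00 without it (7506 genes).

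On the spike-in scale, which compares equal numbers of T98G cells if the cell mix did not vary, mRNA of nearly all members was lower in shDYRK1A. In bulk RNA, fewer cells and less RNA per cell cannot be told apart. A gene was tested when its mean normalized count was above 10 CPM, which 42 of the 44 members and 9697 genes in all passed. HNRNPA1L2 (292 ± 46.4 in shControl and 219 ± 22.3 in shDYRK1A, SD, n = 3) and HNRNPCL1, with a mean of 7 in each group, did not. At an adjusted p below 0.05, 37 of the 42 members (88.1%) were lower, where 63.4% of all tested genes were. These were 11 of 13 SR genes, 20 of 20 hnRNP genes and 6 of 9 SF3 genes. Lower members numbered 28 without shControl 1A, 29 without shControl 1B, 30 without shDYRK1A 1C and 34 without shDYRK1A 1B, and those lost in the last case were SRSF4, SRSF6 and HNRNPH3. No member was higher (0 at an unadjusted p below 0.05 and 0 by DESeq2), against 1.08% of all genes, and the fold change of all 42 was negative. In 33 of 42 members (78.6%) every shDYRK1A library lay below every shControl library, against 63.6% of all genes. Past a log2 fold change of -0.7, as 14.3% of all genes were, lay 5 members: SRSF10, SRSF11, HNRNPLL, HNRNPD and HNRNPU. They make up 11.9% of the tested members, no more than the share of all genes. The nearest member outside was HNRNPA3 (-0.68). That count is fragile, being 0 without shDYRK1A 1B, 1 without shControl 1A, 2 without shControl 1B, 9 without shDYRK1A 1A and 10 without shControl 1C.

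**Figure D1:**
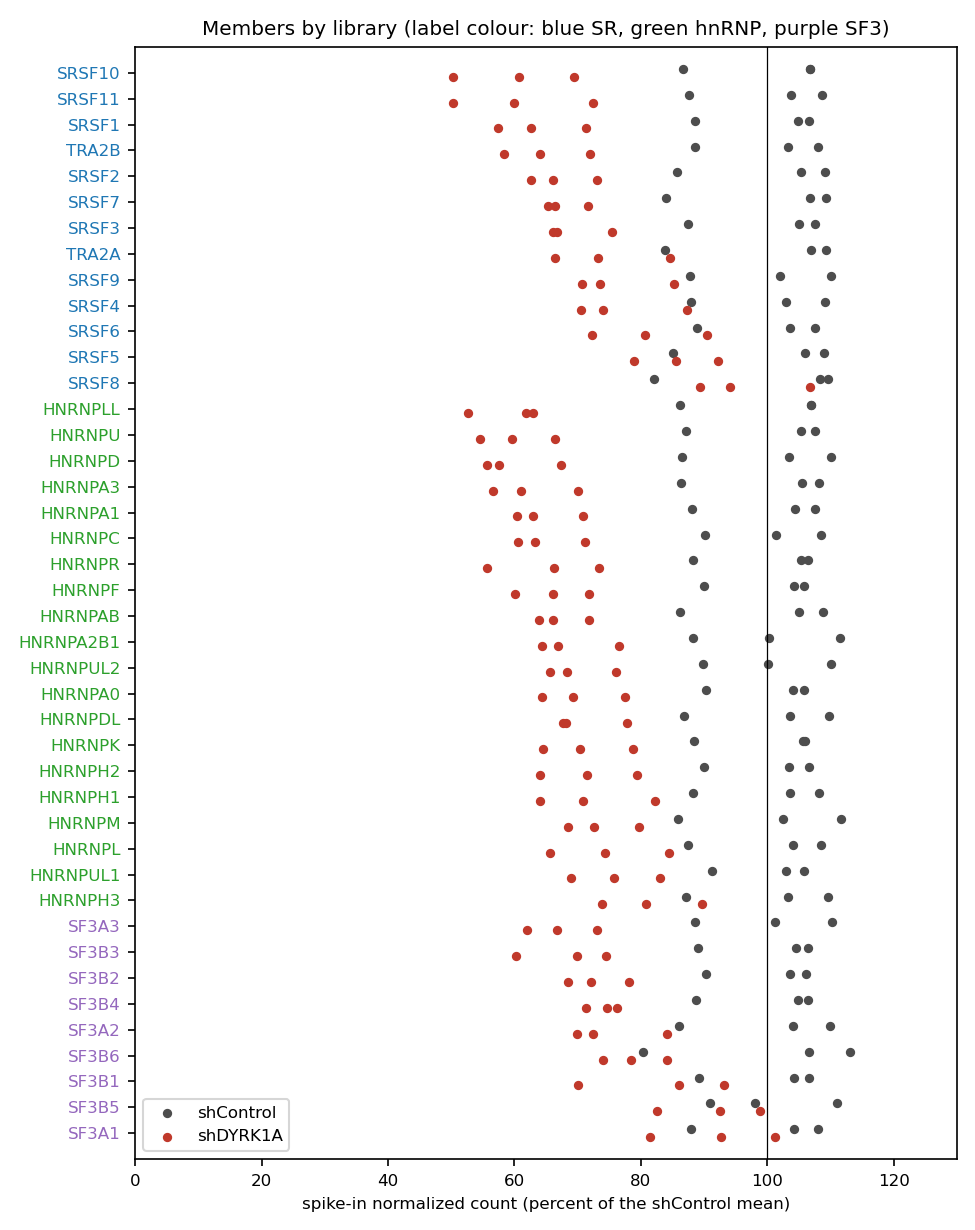
Spike-in normalized counts of the 42 tested members in each of the 6 libraries, as a percent of the shControl mean of the gene (grey, shControl; red, shDYRK1A), ordered by fold change within the SR, hnRNP and SF3 groups. In 33 members all red points lie left of all grey points. Overlap is seen in TRA2A, SRSF6, SRSF5, SRSF8, HNRNPH3, SF3B6, SF3B1, SF3B5 and SF3A1.

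A shared shift of this kind moves most genes together: the median log2 fold change was -0.40 over all tested genes, -0.53 over the SR genes, -0.52 over the hnRNP genes and -0.41 over the SF3 genes. To see which members moved against the rest of the transcriptome, the same counts were fitted with TMM, which scales libraries on the human genes themselves and brought the median of all genes to 0.00. On this relative scale the medians were -0.12 (SR), -0.12 (hnRNP) and 0.00 (SF3). At an adjusted p below 0.05, 19 of the 42 members (45.2%) fell relative to human genes, against 28.6% of all genes, and 7 (16.7%) rose, against 27.3%. The 19 comprised 7 SR, 10 hnRNP and 2 SF3 genes. Those that rose were SRSF5, SRSF6 and SRSF8, the hnRNP gene HNRNPH3, and SF3A1, SF3B1 and SF3B5. Leaving out each library in turn kept 16 of the 19 falls and 4 of the 7 rises in every fit. The calls that did not last were SRSF3, SRSF7 and HNRNPA0 among the falls and SRSF6, HNRNPH3 and SF3B1 among the rises. Without shDYRK1A 1B, 23 members fell and 7 rose, the 4 further falls being HNRNPA2B1, HNRNPUL2, HNRNPDL and HNRNPK.

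**Figure D2:**
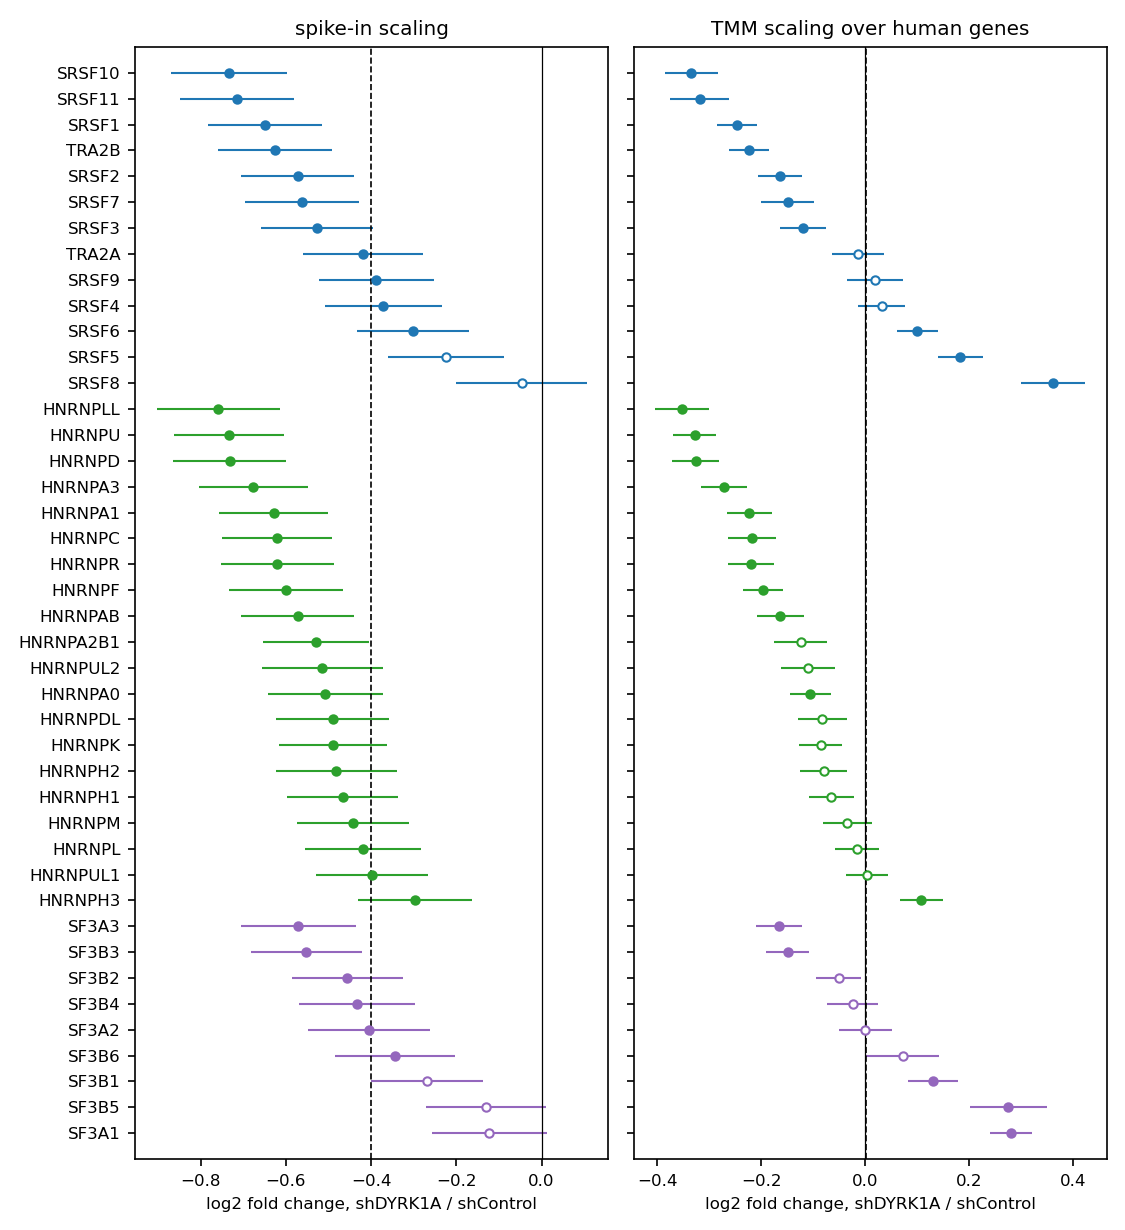
Log2 fold change (shDYRK1A over shControl) of the 42 tested members with its standard error, on the spike-in scale (left) and the TMM scale (right), whose axes differ in range. Filled points passed an adjusted p of 0.05 (edgeR), colours mark SR (blue), hnRNP (green) and SF3 (purple) genes, and the dashed line is the median of all 9697 genes, at -0.40 and 0.00. All filled points on the left lie below 0, while on the right 19 lie below and 7 above.

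Among the SR genes, the lowest was SRSF10 (ENSG00000188529, GRCh38 chromosome 1, 23964804 to 23980927, minus strand), which encodes a splicing repressor known from heat shock. It had 7478, 7480 and 6069 normalized counts in shControl and 4862, 3521 and 4255 in shDYRK1A, without overlap. SRSF10 fell by 0.73 ± 0.14 (SE, adjusted p = 8.1e-07, edgeR) on the spike-in scale and by 0.33 ± 0.05 (adjusted p = 0.0002) relative to human genes. SRSF11 (ENSG00000116754, chromosome 1, 70205682 to 70253052, plus strand) encodes an SR-related protein that contacts the U2AF complex. It had 10267, 10759 and 8676 in shControl and 7173, 4982 and 5938 in shDYRK1A, and it fell by 0.72 ± 0.13 and, relative to human genes, by 0.32 ± 0.06. In both genes shDYRK1A 1B was the lowest library. Without it the relative changes of SRSF10 and SRSF11 were -0.28 and -0.26.

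SRSF1, the founding member of the family and a regulator of both splicing and translation, had normalized counts of 12255, 12047 and 10178 in shControl and 8197, 6603 and 7191 in shDYRK1A. It fell by 0.65 ± 0.13 (SE) on the spike-in scale and by 0.25 ± 0.04 relative to human genes (adjusted p = 0.00024, edgeR). A caution is that 56.6% of its exonic bases are shared with AC015813.2 on the same strand, so reads there could have been set aside as ambiguous. TRA2B, which binds GAA-rich exonic enhancers, had 11218, 10727 and 9200 in shControl and 7467, 6053 and 6654 in shDYRK1A. It fell by 0.63 ± 0.13 and, relative to human genes, by 0.22 ± 0.04. SRSF2, the speckle protein long known as SC35, had 12847, 13311 and 10458 in shControl and 8911, 7646 and 8068 in shDYRK1A. It fell by 0.57 ± 0.13 and, relative to human genes, by 0.16 ± 0.04. In none of these 3 genes did the groups overlap.

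SRSF3 and SRSF7, which couple splicing to mRNA export, moved less. SRSF3, the most abundant SR gene by mean count, had 15404, 15047 and 12541 in shControl and 10812, 9468 and 9561 in shDYRK1A, with a relative change of -0.12 ± 0.04 (SE, adjusted p = 0.039, edgeR). SRSF7 had 10135, 9910 and 7797 in shControl and 6641, 6057 and 6166 in shDYRK1A, with a relative change of -0.15 ± 0.05 (adjusted p = 0.025). Both groups of libraries stayed apart in each gene, yet these 2 relative calls were lost when some single libraries were left out.

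The other end of the SR group was held by SRSF6, SRSF5 and SRSF8. SRSF6, a DYRK1A substrate studied for its part in tau exon choice, had 12083, 11635 and 9979 in shControl and 10168, 8119 and 9051 in shDYRK1A, and the groups overlapped. It fell by 0.30 ± 0.13 (SE) on the spike-in scale (adjusted p = 0.037, edgeR) and rose by 0.10 ± 0.04 relative to human genes (adjusted p = 0.046). The spike-in call of SRSF6 was lost without shDYRK1A 1B (edgeR, adjusted p = 0.178), shControl 1A (0.192), shControl 1B (0.145) or shDYRK1A 1C (0.144). SRSF5 had 5973, 6141 and 4796 in shControl and 5200, 4444 and 4824 in shDYRK1A, with -0.22 ± 0.14 on the spike-in scale (adjusted p = 0.13). Relative to human genes SRSF5 rose by 0.18 ± 0.04 (adjusted p = 0.0038). SRSF8, an expressed retrocopy of SRSF2, was the highest member of all, with 1073, 1061 and 804 in shControl and 1045, 876 and 921 in shDYRK1A. Its spike-in fold change was -0.05 ± 0.15 (adjusted p = 0.79), while relative to human genes it rose by 0.36 ± 0.06 (adjusted p = 0.00048). As a share of human counts, SRSF8 was at 22.3, 22.2 and 20.0 CPM in shControl and 28.5, 28.0 and 27.6 CPM in shDYRK1A. These did not overlap, and the share of all genes for which that held in CPM was not computed. Reads that fit SRSF2 and SRSF8 alike would count as multimapping, so the split between the pair is uncertain. The SR genes not yet named, TRA2A, SRSF9 and SRSF4, lay between -0.42 and -0.37 on the spike-in scale and between -0.01 and 0.03 relative to human genes. The spike-in calls of TRA2A, SRSF9 and SRSF4 were lost without shControl 1A (edgeR, adjusted p = 0.0829, 0.108 and 0.126), shControl 1B (0.0631, 0.0511 and 0.0722) or shDYRK1A 1C (0.0617, 0.11 and 0.109). Of these, SRSF4 was also not called on the spike-in scale without shDYRK1A 1B (edgeR, adjusted p = 0.064). The groups of TRA2A overlapped.

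All 20 tested hnRNP genes were lower on the spike-in scale, from -0.76 to -0.30, and in 19 of them the groups did not overlap, against 63.6% of all genes. Not all of these calls lasted without shControl 1A or without shControl 1B. HNRNPH3, described below, was not the only hnRNP call lost there. HNRNPLL (ENSG00000143889, chromosome 2, 38561978 to 38603586, minus strand), a regulator of CD45 exon choice in T cells, was the lowest member of all, with counts of 2754, 2751 and 2219 in shControl and 1618, 1354 and 1591 in shDYRK1A. It fell by 0.76 ± 0.14 (SE, adjusted p = 1.5e-06, edgeR) and, relative to human genes, by 0.35 ± 0.05 (adjusted p = 0.00016). HNRNPU (ENSG00000153187, chromosome 1, 244840638 to 244864560, minus strand), a scaffold protein that ties RNA to chromatin, had 38451, 37644 and 31139 in shControl and 23725, 19503 and 21290 in shDYRK1A. It fell by 0.73 ± 0.13 and by 0.33 ± 0.04. HNRNPD (ENSG00000138668, chromosome 4, 82352498 to 82374503, minus strand), also called AUF1, binds AU-rich elements in labile mRNAs. HNRNPD had 15400, 14476 and 12106 in shControl and 9429, 7794 and 8064 in shDYRK1A, and fell by 0.73 ± 0.13 and by 0.33 ± 0.05. These relative changes did not rest on shDYRK1A 1B, since without it they were -0.34, -0.33 and -0.34 for HNRNPLL, HNRNPU and HNRNPD.

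Of the A/B and C proteins, which form the core hnRNP particle, HNRNPA2B1 had the highest counts before correction for length, with 81655, 73457 and 64617 in shControl and 56114, 47140 and 49025 in shDYRK1A. It fell by 0.53 ± 0.13 (SE) on the spike-in scale (adjusted p = 0.00011, edgeR), but its relative change of -0.12 ± 0.05 did not pass the test (adjusted p = 0.055). Without shDYRK1A 1B that relative change was -0.14 and passed (edgeR, adjusted p = 0.0078). HNRNPA1, a repressor of exon inclusion, had 45894, 44559 and 37624 in shControl and 30222, 25765 and 26849 in shDYRK1A, and fell by 0.63 ± 0.13 and by 0.22 ± 0.04. The table also holds 25 pseudogene symbols of HNRNPA1, whose counts sum to 2.45% of its own. HNRNPA3, of the same subfamily, had 44038, 42958 and 35178 in shControl and 28558, 23037 and 24864 in shDYRK1A, and fell by 0.68 ± 0.13 and by 0.27 ± 0.04. HNRNPC, which binds uridine tracts and keeps cryptic Alu exons out of mRNAs, had 30538, 28544 and 25385 in shControl and 20027, 17066 and 17816 in shDYRK1A. It fell by 0.62 ± 0.13 and by 0.22 ± 0.05. HNRNPAB had 15580, 15029 and 12323 in shControl and 10284, 9132 and 9449 in shDYRK1A, and fell by 0.57 ± 0.13 and by 0.16 ± 0.05. In all 5 genes every shDYRK1A library was below every shControl library.

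Within the H/F proteins, which bind runs of guanines, members differed. HNRNPF had 9901, 10043 and 8543 in shControl and 6823, 5704 and 6274 in shDYRK1A, and fell by 0.60 ± 0.13 (SE) and by 0.20 ± 0.04 relative to human genes (adjusted p = 0.0011, edgeR). HNRNPH3 had 9697, 9133 and 7700 in shControl and 7929, 6525 and 7143 in shDYRK1A, and was the only tested hnRNP gene whose groups overlapped. It fell by 0.30 ± 0.13 on the spike-in scale (adjusted p = 0.042) and rose by 0.11 ± 0.04 relative to human genes (adjusted p = 0.039). The spike-in call of HNRNPH3 was lost without shDYRK1A 1B (edgeR, adjusted p = 0.166), shControl 1A (0.24), shControl 1B (0.151) or shDYRK1A 1C (0.157). HNRNPR, a relative of SYNCRIP, had 12938, 12812 and 10718 in shControl and 8925, 6758 and 8045 in shDYRK1A, and fell by 0.62 ± 0.13 and by 0.22 ± 0.04. HNRNPUL1, an HNRNPU relative with a part in DNA repair, had 15122, 14732 and 13053 in shControl and 11865, 9855 and 10836 in shDYRK1A. It fell by 0.40 ± 0.13 on the spike-in scale, and its relative change was 0.00 ± 0.04 (adjusted p = 0.95). The 8 tested hnRNP genes not given by library lay between -0.51 and -0.42 on the spike-in scale. With all libraries, HNRNPA0 fell relative to human genes (-0.11, edgeR, adjusted p = 0.037) and the other 7 did not pass the test. Without shDYRK1A 1B, HNRNPDL (adjusted p = 0.0125), HNRNPUL2 (0.0204) and HNRNPK (0.0367) passed as well. For HNRNPUL2, 44.1% of the exonic bases are shared with the read-through gene HNRNPUL2-BSCL2.

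SF3 genes were split, in shares near those of all genes. Relative to human genes 22.2% fell and 33.3% rose, against 28.6% and 27.3% of all genes. On the spike-in scale 66.7% were lower, against 63.4%. SF3A3 and SF3B3 fell on both scales. SF3A1, SF3B1 and SF3B5 did not pass the test on the spike-in scale and rose relative to human genes. The other 4 fell on the spike-in scale only. Of these 4, SF3A2 and SF3B6 lost the spike-in call without shControl 1A (edgeR, adjusted p = 0.108 and 0.227), shControl 1B (0.0594 and 0.139) or shDYRK1A 1C (0.0856 and 0.164). The groups of SF3B6 overlapped. SF3A3 had 8276, 7606 and 6655 in shControl and 5492, 4662 and 5015 in shDYRK1A, and fell by 0.57 ± 0.14 (SE) and by 0.17 ± 0.04 (adjusted p = 0.0069, edgeR). SF3B3, a scaffold of SF3B, had 22143, 21774 and 18541 in shControl and 15519, 12532 and 14558 in shDYRK1A, and fell by 0.55 ± 0.13 and by 0.15 ± 0.04. The groups did not overlap in either gene. SF3B2 had 19886, 19420 and 16934 in shControl and 14656, 12844 and 13509 in shDYRK1A, which put its relative change at -0.05 ± 0.04 (adjusted p = 0.34).

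SF3B1, the subunit that clamps the branch site and the one most often mutated in myeloid disease, had 15032, 14713 and 12589 in shControl and 13141, 9880 and 12134 in shDYRK1A. The groups overlapped, and the spike-in fold change of -0.27 ± 0.13 (SE) missed the threshold (adjusted p = 0.062, edgeR). Relative to human genes SF3B1 rose by 0.13 ± 0.05 (adjusted p = 0.035), and without shDYRK1A 1B by 0.18. That relative call did not last in every fit that left a library out. SF3A1, whose product contacts U1, had 7073, 6825 and 5758 in shControl and 6636, 5336 and 6076 in shDYRK1A, with -0.12 ± 0.13 on the spike-in scale (adjusted p = 0.41). Its relative rise was 0.28 ± 0.04 (adjusted p = 0.00012). SF3B5, a small subunit encoded by a single exon, had 3343, 2953 and 2735 in shControl and 2976, 2787 and 2483 in shDYRK1A, with -0.13 ± 0.14 (adjusted p = 0.4). It rose by 0.28 ± 0.07 relative to human genes (adjusted p = 0.008), and by 0.19 without shDYRK1A 1B.

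The share of all human gene counts that each group took needs no spike-in. SR genes took 0.240, 0.238 and 0.233% in shControl and 0.228, 0.219 and 0.221% in shDYRK1A, and the 95% Wilson interval of the first library, 0.238 to 0.241%, covers counting error only. The hnRNP genes took 0.902, 0.871 and 0.879% in shControl and 0.816, 0.795 and 0.796% in shDYRK1A. Both groups of genes were lower in every shDYRK1A library than in any shControl library, from a mean of 0.237 ± 0.00327% to 0.223 ± 0.00444% for SR and from 0.884 ± 0.0158% to 0.802 ± 0.0117% for hnRNP (SD, n = 3). SF3 genes took 0.186, 0.181 and 0.184% in shControl and 0.187, 0.183 and 0.189% in shDYRK1A, and here the groups overlapped.

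**Figure D3:**
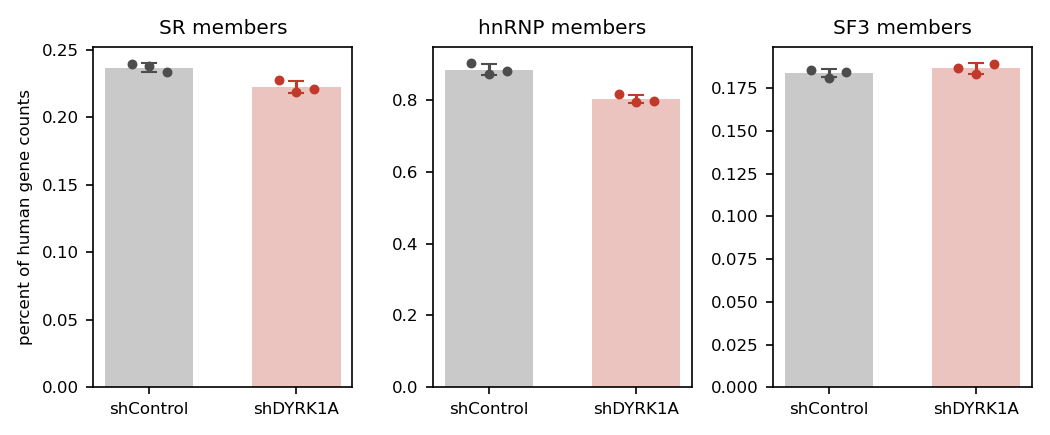
Percent of all human gene counts taken by the SR, hnRNP and SF3 members in each library (points), with the mean (bar) and SD (error bar) of 3 libraries per group. The 3 shDYRK1A points lie below the 3 shControl points for SR and hnRNP genes and overlap them for SF3 genes.

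Related genes were next compared inside each library, as the log2 ratio of their counts, on which no scaling bears. The 15 pairs were picked after the values were known and carry no test. In 13 of the 15 pairs the ratio did not overlap between the groups, against 63.8% of all pairs of tested genes. SRSF2 to SRSF8 moved furthest, from 3.58, 3.65 and 3.70 in shControl to 3.09, 3.13 and 3.13 in shDYRK1A. TRA2A gained on its partner TRA2B, from a mean log2 ratio of -1.51 ± 0.0683 to -1.30 ± 0.0262 (SD, n = 3). HNRNPD lost against its paralog HNRNPDL, from 0.21 ± 0.00408 to -0.03 ± 0.0360. HNRNPL gained on HNRNPLL, from 1.22 ± 0.0333 to 1.56 ± 0.0814, and HNRNPU lost against HNRNPUL1, from 1.32 ± 0.0553 to 0.99 ± 0.0128. The ratios of SRSF3 to SRSF7 and of SRSF5 to SRSF6 overlapped. Without shDYRK1A 1B the difference of the SRSF2 to SRSF8 ratio was -0.53, as it was with all libraries.

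**Figure D4:**
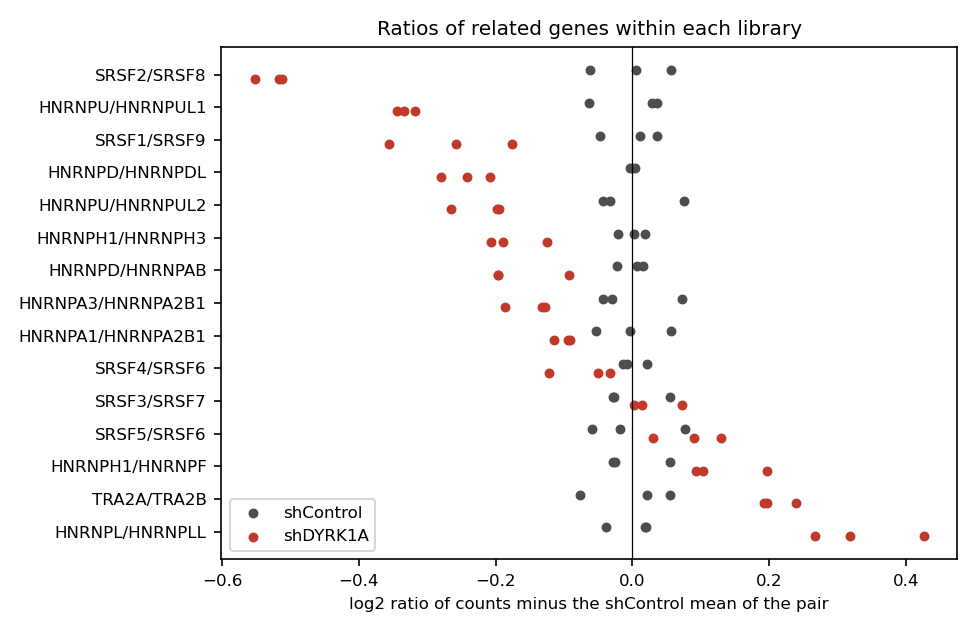
Log2 ratio of the counts of 2 related genes in each library, after subtracting the shControl mean of the pair (grey, shControl; red, shDYRK1A). Ratios moved by between -0.53 (SRSF2/SRSF8) and 0.34 (HNRNPL/HNRNPLL), and the groups overlap in 2 of the 15 pairs, SRSF3/SRSF7 and SRSF5/SRSF6.

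Levels between genes were compared per kilobase of annotated exon (GENCODE v29) in shControl. Exon length merged the exons of all annotated transcripts of a gene, retained introns included, so it can exceed the length of the mRNA. For HNRNPU it was 22.5 kilobases in a gene span of 23.9, which put HNRNPU at 1588 per kilobase. The order below and the correlations with exon length depend on this definition. The median normalized count per kilobase was 2163 for the 20 tested hnRNP genes, 1676 for the 9 SF3 genes and 1169 for the 13 SR genes, against 389 over all tested genes. The top of the order was held by HNRNPA1 (8383 ± 872 per kilobase, SD, n = 3), HNRNPA2B1 (7904 ± 920) and HNRNPK (7336 ± 739), followed by HNRNPA3 (6750 ± 801) and HNRNPAB (6675 ± 813), and no 2 neighbours in this order differed beyond their SDs. SRSF2 (4045 ± 508) was the highest SR gene and SRSF8 (243 ± 37.7) the lowest, while SF3B5 (4344 ± 445) led the SF3 genes. Across the 42 members the relative fold change had a Spearman correlation of -0.30 with exon length, -0.14 with this level and -0.14 with gene span, where exon length gave -0.17 across all tested genes. The genes share their libraries, so this is a description only.

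All 13 SR genes have at least 1 transcript annotated as a target of nonsense-mediated decay, as do 13 of the 20 tested hnRNP genes and 3 of the 9 SF3 genes, against 46.3% of 9379 tested protein-coding genes. SRSF7 has 6 such transcripts and HNRNPU has 9. Gene counts sum over all transcripts, so the use of poison exons was not measured.

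Other splicing genes, in 8 lists, were read on the same scales. Of their 132 tested genes, 98 were lower, where 63.4% of all genes were, and none higher on the spike-in scale (0 at an unadjusted p below 0.05 in edgeR and 0 by DESeq2). Relative to human genes 41 fell and 27 rose, where 28.6% of all genes fell and 27.3% rose. Among factors of branch site and 3′ splice site recognition, which work beside SF3, 7 of 13 fell and 2 rose relative to human genes, from HTATSF1 (-0.38) to PUF60 (0.18). Sm and other snRNP proteins had 5 falls and 3 rises among 18, from SNRNP27 (-0.42) to SNRNP25 (0.35). The tri-snRNP and catalytic step factors had 3 falls and 8 rises among 24. Their lowest gene was PRPF4, a tri-snRNP protein, with 3277, 3241 and 2668 in shControl and 1407, 1066 and 1314 in shDYRK1A. PRPF4 fell by 1.28 ± 0.15 (SE) on the spike-in scale and by 0.88 ± 0.05 relative to human genes (adjusted p = 2.6e-07, edgeR). The highest was BUD31 (0.38).

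Kinases of SR proteins and their importin, 8 tested genes, had 3 falls and 2 rises relative to human genes. For this list and those that follow, the shares over all tested genes were again 28.6% falls and 27.3% rises. SRPK1, which phosphorylates SR proteins in the cytoplasm, fell by 0.32 ± 0.05 (SE), and CLK1, a nuclear SR kinase, rose by 0.57 ± 0.07 (adjusted p = 3.1e-05, edgeR). CLK1 had normalized counts of 950, 913 and 774 in shControl and of 1158, 817 and 986 in shDYRK1A, which overlap, and its spike-in fold change of 0.17 ± 0.15 did not pass the test (adjusted p = 0.32). SR-related proteins outside the classical family had 6 falls and 6 rises among 26, from BCLAF1 (-0.36) to RSRP1 (0.46). The hnRNP proteins with other symbols had 4 falls and 1 rise among 8, from SYNCRIP (-0.30) to RALY (0.16). Other RNA-binding regulators had 8 falls and 3 rises among 20, from QKI (-0.45) to RBM5 (0.19). Exon junction and nonsense-mediated decay factors had 5 falls and 2 rises among 15, from MAGOHB (-0.57), a core exon junction protein, to UPF1 (0.24), the helicase of the decay pathway.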

How the data were processed

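Messenger RNA was sequenced from 6 T98G libraries, 3 per group (TruSeq stranded, paired-end). The authors aligned reads with STAR to hg38 and dm3 (the aligner version is not given in the sources used here) and deposited raw read counts per human gene. A second deposited table holds a normalized signal, the counts divided by 1 constant per library, which the authors derived from the fly reads. A further deposited table holds the authors' comparison (log2 fold changes, errors, a Wald statistic and p-values), which was not used. The 4 summary lines for unassigned reads stayed out of library sizes and tests.

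The constants (0.821 to 1.21) were read from the normalized table and used as scaling in edgeR 4.0.16 (glmQLFit robust, glmQLFTest; R 4.3.3) on the raw counts of 9697 genes above 10 CPM. P-values were Benjamini-Hochberg adjusted over all of them. The standard error of a fold change was taken as its size over the root of its F statistic. TMM gave the second scale. Alternatives were median-of-ratios scaling, DESeq2 1.42.0, filterByExpr, no filter, the replicate letter as a block, and each library left out. No per-sample column was left unassigned. The fit was tested on simulated data. Start and end of 41 of the 44 members equalled GENCODE v29.

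Described by library were, in each group, the 2 lowest, 2 highest and 2 most abundant members, members past -0.7, 6 more by relative p, SRSF1, SRSF2, SRSF6, TRA2B, SF3B1 and DYRK1A, and the ends of each list; HNRNPK, HNRNPA0, HNRNPUL2 and others were added after their values were seen. Members and lists were chosen with earlier results of these data known.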

Additional observations from a re-analysis of the deposited data

How the results depend on the processing

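Under TMM and median-of-ratios scaling alike, 19 members were lower and 7 higher than in shControl, and 0 passed the fold threshold. The medians under TMM and median-of-ratios scaling were -0.12 and -0.12 for SR, -0.12 and -0.11 for hnRNP, and 0.00032 and 0.0035 for SF3 genes. The sign turned from the spike-in scale, with TMM and then median-of-ratios values, for SF3A2 (0.00032 and 0.0035), SF3B6 (0.072 and 0.075), SF3B1 (0.13 and 0.13), SF3B5 (0.28 and 0.28), SF3A1 (0.28 and 0.28), SRSF9 (0.018 and 0.021), SRSF4 (0.032 and 0.035), SRSF6 (0.10 and 0.10), SRSF5 (0.18 and 0.19), SRSF8 (0.36 and 0.37), HNRNPUL1 (0.0036 and 0.0067), HNRNPH3 (0.11 and 0.11), SNRNP25 (0.35 and 0.35), PUF60 (0.18 and 0.19), BUD31 (0.38 and 0.38), RALY (0.16 and 0.16), RBM5 (0.19 and 0.19) and UPF1 (0.24 and 0.24). This follows from the shift of all genes by 0.40 between the scales.

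DESeq2 called the same 37 members lower on the spike-in scale. With filterByExpr 4 members, and with no filter beyond 1 count 3 members, rose relative to human genes in place of 7, and the cause was not tested. Leaving out single libraries gave 28 to 39 members lower and 0 to 10 past the fold threshold on the spike-in scale, and 16 to 23 falls and 4 to 7 rises relative to human genes. The 4 rises came without shControl 1B, shControl 1C, shDYRK1A 1A or shDYRK1A 1C. Group medians ranged from -0.61 to -0.47 (SR), -0.60 to -0.46 (hnRNP) and -0.50 to -0.33 (SF3), and DYRK1A from -0.85 to -0.61. Signs of fold changes near 0 turned in SRSF8 (from -0.17 to 0.023, above 0 when shControl 1A, shControl 1B or shDYRK1A 1B was left out), SNRNP25 (from -0.17 to 0.0062, above 0 without shControl 1B), BUD31 (from -0.14 to 0.043, above 0 without shControl 1A or shDYRK1A 1C) and RSRP1 (from -0.10 to 0.16, below 0 without shControl 1C or shDYRK1A 1A).

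Letters 1A, 1B and 1C recur in both groups, but the labels do not say that they mark pairs. The deviations of same-letter libraries correlated at 0.151, 0.0728 and 0.128, not all above 0.1, and the samples were not treated as pairs. Libraries of different letters correlated at -0.0937 to -0.0143. Each library correlated best with its own letter, a hint from the data and not from the design. Whether the letters mark pairs was therefore not settled. With the replicate block, 36 members were lower on the spike-in scale and 5 past the fold threshold, and 19 fell and 6 rose relative to human genes. HNRNPH3 on the spike-in scale (edgeR, adjusted p = 0.0523) and SRSF6 relative to human genes (0.0571) were the calls that it ended among the members.

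Precision is limited by 3 libraries per group, and the spread of the spike-in constants enters every standard error on that scale.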
